A study of Arabidopsis thaliana with 18 samples.

Results

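Among the probe sets that rose in systemic leaves of wild-type *Arabidopsis* after a *Psm* infection elsewhere on the plant, 129 were chosen that rose there but rose little, did not move or were lower after *Psm* in both receptor mutants. They were chosen by 3 thresholds on the change with *Psm*, which is the mean log2 level of the *Psm* arrays minus the mean log2 level of the MgCl2 arrays of the same genotype. The change was at least 1 in the wild type and below 0.5 in both *lecrk-VI.2-2* and *bak1-5*, where 1 on this scale is a 2-fold difference. Of 22746 probe sets tested, 567 rose by at least 1 in the wild type, 421 of those also rose by 0.5 or more in a mutant, and 146 met all 3 thresholds. The rule left out 17 of the 146 by name, namely cytochrome P450 genes, JAZ genes and a short list of others. Of the 129, 123 could be tied to a single gene and 6 match several genes or have conflicting names. The probe sets of 5 members carry the suffix that marks a possible match to related genes.

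The comparison rests on 6 groups of 3 arrays each, namely *lecrk-VI.2-2* after *Psm*, *lecrk-VI.2-2* after MgCl2, *bak1-5* after *Psm*, *bak1-5* after MgCl2, wild type after *Psm* and wild type after MgCl2. *Psm* is *Pseudomonas syringae* pv. *maculicola* ES4326, a virulent bacterial leaf pathogen, and the mock treatment was 10 mM MgCl2. On 4-week-old plants 3 lower leaves were infiltrated with MgCl2 or with *Psm* at an OD600 of 0.002, and 2 systemic leaves were collected 48 hr later, with the leaves of 12 plants pooled in each sample. *lecrk-VI.2-2* is a T-DNA insertion line in the lectin receptor kinase gene LecRK-VI.2 and *bak1-5* carries a mutant allele of the co-receptor kinase gene BAK1. The wild type is Col-0. Each mutant is represented by a single allele, and the mock groups carry the same genotype as their *Psm* groups.

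In systemic acquired resistance (SAR), a local infection makes leaves that were never infected respond faster and more strongly to a later attack. Cell-surface receptor kinases, which detect pathogen molecules and damage signals outside the cell, act with co-receptors such as BAK1. Their signal passes through cytoplasmic kinases and calcium to transcription factors, and genes induced early in such responses often encode calcium-binding proteins, WRKY and ERF factors, ubiquitin ligases and components of secretion.

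The probe sets of the mutated genes and the quality of the arrays were looked at first. The LecRK-VI.2 probe set was no lower in the insertion line than in mock wild-type leaves. It read 5.45 to 5.68 across the 6 *lecrk-VI.2-2* arrays, 5.48 to 5.72 across the 6 *bak1-5* arrays, 5.78 to 5.91 in wild-type leaves after *Psm* and 5.44 to 5.55 after MgCl2. The paper measured a lower basal LecRK-VI.2 transcript level in this line by qPCR and calls it a knockdown mutant. The array levels do not show that drop. Whether that probe set lies beyond the insertion is not given in the sources used here, so it does not check the genotype. The BAK1 probe set read 5.19 to 5.86 in *lecrk-VI.2-2*, 5.37 to 5.85 in *bak1-5* and 5.45 to 6.06 in the wild type, and as *bak1-5* is a mutant allele its transcript level checks nothing either. The *lecrk-VI.2-2* MgCl2 replicate 2 and *Psm* replicate 3 arrays had the fewest bright probe sets, with 16.0% and 16.8% at a log2 level of 6 or more, against 18.2% to 19.6% on the other 16 arrays. Only 2 of 20 cell type marker genes could be named on the array, and of these the mesophyll gene RCA (Rubisco activase) had group means of 12.53 to 12.78 and the guard cell gene FAMA 5.08 to 5.32, so the cell makeup of the leaves was not tested. In leaf tissue as a whole, fewer cells of a type and less RNA per cell cannot be told apart.

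Because the change with *Psm* in all 3 genotypes chose the members, these changes are given as a description and were not tested as a result. The median change over the 129 was 0.21 in *lecrk-VI.2-2*, 0.14 in *bak1-5* and 1.34 in the wild type, where the medians over all probe sets were 0.00, -0.04 and -0.04. Single arrays moved the mutant medians. That of *lecrk-VI.2-2* was 0.07 if its *Psm* replicate 2 was dropped and 0.32 if its *Psm* replicate 3 was, and that of *bak1-5* was -0.01 and 0.25 for the same replicates of its own. The standard error of a change had a median of 0.19. All 3 *Psm* arrays lay above all 3 MgCl2 arrays for 17 members in *lecrk-VI.2-2*, 23 in *bak1-5* and 128 in the wild type, beside 4.88%, 10.7% and 15.1% of all probe sets. They lay below for 0, 5 and 0 members, beside 4.94%, 15.7% and 21.3%. The exception in the wild type was AT5G01210, with 5.96, 4.58 and 5.92 after *Psm* and 4.46, 4.70 and 4.21 after MgCl2. At q of 0.05 or less (limma, Benjamini-Hochberg over all probe sets), 0 members rose and 0 fell in *lecrk-VI.2-2* (0.607% and 0.484% of all probe sets), 3 rose in *bak1-5* (4.08%) and 128 rose in the wild type (7.36%). TCH2 was the one that missed in the wild type. The wild-type change exceeded the *lecrk-VI.2-2* change at that q for 71 members (1.11%) and the *bak1-5* change for 77 (1.07%). Nothing is read from these counts, as the rule fixed them.

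The array medians show how far apart the genotypes were and how much replicates of 1 group differed. Relative to each member's mean in mock wild-type leaves, the median over the 129 on replicates 1, 2 and 3 was 0.09, 0.46 and -0.03 in *lecrk-VI.2-2* after *Psm* and -0.03, -0.15 and 0.09 after MgCl2. The corresponding medians in *bak1-5* were 0.29, 0.54 and 0.08 after *Psm* and 0.16, 0.30 and 0.01 after MgCl2. They were 1.48, 1.16 and 1.49 in the wild type after *Psm* and -0.01, 0.06 and -0.07 after MgCl2. The median of every wild-type *Psm* array therefore stood above that of every mutant array, and within both mutants the *Psm* and MgCl2 arrays overlapped. The members moved together from array to array. *Psm* replicate 2 was the highest of its 3 arrays for 114 members in *lecrk-VI.2-2* and for 109 in *bak1-5*, beside 29.7% and 48.5% of all probe sets. Among the other 438 probe sets that rose by at least 1 in the wild type it was the highest for 363 and 321. *bak1-5* MgCl2 replicate 2 was the highest of its 3 for 88 members, beside 33% of all probe sets, and among the other wild-type risers for 177.

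**Figure D1:**
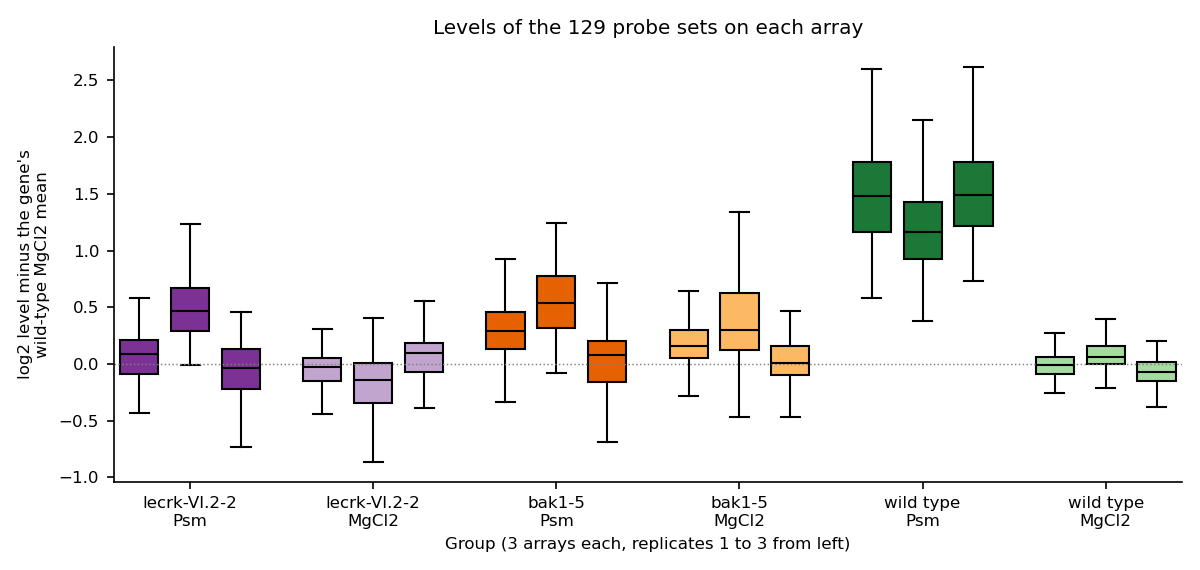
Levels of the 129 probe sets on each of the 18 arrays, as the log2 level minus each probe set's mean on the 3 wild-type MgCl2 arrays. Boxes span the quartiles, black lines are medians and whiskers reach the most extreme value within 1.5 box lengths. The 3 wild-type *Psm* arrays have medians of 1.16 to 1.49 and every other array lies between -0.15 and 0.54.

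The map of all members by role shows the levels array by array. A wild-type change of at least 1 beside a mutant change below 0.5 all but fixes a mutant *Psm* level below the wild-type one, so nothing is read from the counts of *Psm* levels that follow. In 120 of the 129, all 3 *lecrk-VI.2-2* *Psm* arrays lay below all 3 wild-type *Psm* arrays (12% of all probe sets), and the same number held for *bak1-5* (9.52%). The mutant arrays were all above in 0 members for either mutant, beside 12.9% of all probe sets for *lecrk-VI.2-2* and 10.4% for *bak1-5*. The mean after *Psm* was nearer to the wild-type mock mean than to the wild-type *Psm* mean for all 129 in *lecrk-VI.2-2* and for 121 in *bak1-5*. Many members were dim, since 83 of 129 (64.3%) had a group mean of 6 or more in some group, against 385 of the other 438 wild-type risers (87.9%) and 22.3% of all probe sets.

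**Figure D2:**
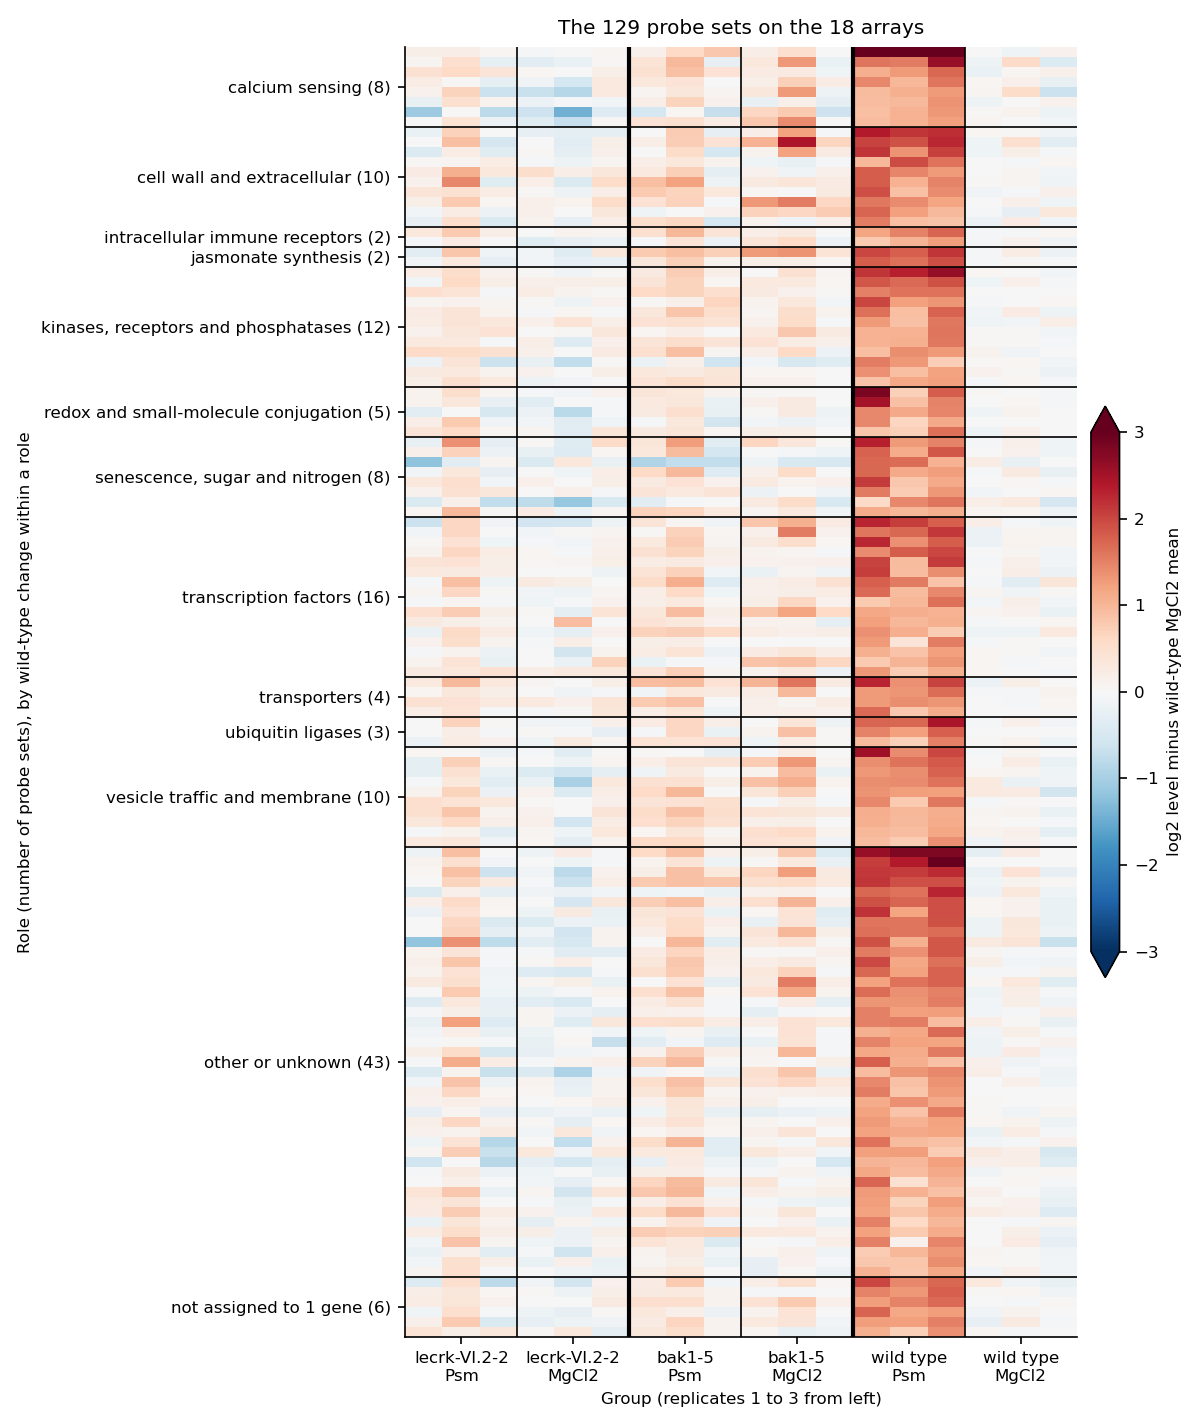
Each row is 1 of the 129 probe sets and each column 1 of the 18 arrays, coloured by the log2 level minus the mean on the wild-type MgCl2 arrays (red higher, blue lower). Rows are grouped by role, with the number of probe sets, and sorted by wild-type change within a role. The wild-type *Psm* columns are red in nearly every row, and *bak1-5* MgCl2 replicate 2 is red for part of the rows.

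Calcium sensing held 8 members. The largest wild-type change of all, 3.47 ± 0.18 (SE, n = 3 arrays per group), belonged to AT3G01830, which encodes the calmodulin-like protein CML40. Its level was 3.34, 3.37 and 3.22 after *Psm* and 3.11, 3.18 and 3.23 after MgCl2 in *lecrk-VI.2-2*, and 3.32, 3.77 and 3.97 after *Psm* and 3.36, 3.68 and 3.16 after MgCl2 in *bak1-5*. In the wild type it was 6.69, 6.18 and 7.04 after *Psm* and 3.16, 3.04 and 3.31 after MgCl2. The wild-type *Psm* arrays stood more than 2 log2 units above every other array. CML38, a calcium sensor also linked to RNA granules under low oxygen, changed by 0.27, -0.09 and 1.93 in *lecrk-VI.2-2*, *bak1-5* and the wild type. AT1G18210 (CML27) changed by 0.10, -0.13 and 1.35 and AT5G39670 (CML45) by 0.40, 0.45 and 1.36 in the same order. TCH2 and TCH3 are calmodulin-like genes known for their rapid induction by touch. TCH3 read 7.14, 8.21 and 7.43 after *Psm* and 7.60, 6.78 and 7.84 after MgCl2 in *lecrk-VI.2-2*, and 7.69, 8.27 and 7.53 after *Psm* and 8.86, 9.01 and 7.61 after MgCl2 in *bak1-5*. Wild-type leaves gave 9.12, 9.26 and 9.52 after *Psm* and 8.26, 8.33 and 8.08 after MgCl2. All 3 *lecrk-VI.2-2* mock arrays were thus below all 3 wild-type mock arrays, and 2 of the 3 *bak1-5* mock arrays were above them. TCH2 had changes of 0.46, -0.31 and 1.101, with standard errors of 0.37.

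Of 50 calmodulin-like genes listed, 39 were measured and 6 were members, beside 129 of all 22746 probe sets. At q of 0.05 or less 2 rose and 0 fell in *lecrk-VI.2-2* (0.607% and 0.484% of all probe sets). In *bak1-5* 3 rose and 2 fell (4.08% and 3.01%), and in the wild type 12 rose and 1 fell (7.36% and 5.54%). The counts include the 6 members, which the rule chose for rising only in the wild type, so nothing is read from them. The family's median changes were 0.07, -0.01 and 0.10. CML10 and CML35 rose in all 3 genotypes, CML10 by 1.04 in *lecrk-VI.2-2*, 2.50 in *bak1-5* and 1.66 in the wild type and CML35 by 0.89, 0.65 and 1.60. CML37 and CML41 lay just short of the wild-type threshold, with 0.07, 0.03 and 0.90 for CML37 and 0.06, 0.18 and 0.93 for CML41.

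Kinases, receptors and phosphatases made up 12 members, and only 1 of them changed by less than 0 in *bak1-5*. AT5G47070 encodes the receptor-like cytoplasmic kinase PBL19, of the family that relays signals from cell-surface receptors. It read 4.44, 4.75 and 4.34 after *Psm* and 4.24, 4.09 and 4.24 after MgCl2 in *lecrk-VI.2-2*, and 4.48, 4.95 and 4.42 after *Psm* and 4.21, 4.68 and 4.30 after MgCl2 in *bak1-5*. The wild type had 6.35, 6.54 and 6.84 after *Psm* and 4.28, 4.22 and 4.14 after MgCl2. The *Psm* and mock arrays overlapped in *bak1-5*, lay close to each other without overlap in *lecrk-VI.2-2* and differed by 2.37 ± 0.15 (SE) in the wild type. RIPK, a kinase of the same family that phosphorylates the immune regulator RIN4, changed by 0.06 in *lecrk-VI.2-2*, 0.17 in *bak1-5* and 1.83 in the wild type. NAK and CST, both of this family, changed by 0.40 and 0.13 in *lecrk-VI.2-2*, by 0.29 and 0.28 in *bak1-5* and by 1.20 and 1.16 in the wild type. Of 15 genes of the family listed 11 were measured, and 4 of these (AT5G47070, RIPK, NAK and CST) were members of the set. At q of 0.05 or less 0 rose in *lecrk-VI.2-2* (0.607% of all probe sets), 1 in *bak1-5* (4.08%) and 5 in the wild type (7.36%). Nothing is read from these counts, as the rule chose the 4 for rising only in the wild type. BIK1, the best-known of the family, changed by 0.01, -0.05 and 0.17 in *lecrk-VI.2-2*, *bak1-5* and the wild type.

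Receptors that work at the cell surface were also among the members. BIR1, a receptor-like kinase that binds BAK1 and restrains immune signaling, had 5.79, 5.68 and 5.24 after *Psm* and 5.50, 5.38 and 5.31 after MgCl2 in *lecrk-VI.2-2*. It had 5.86, 5.95 and 5.79 after *Psm* and 5.53, 5.41 and 5.31 after MgCl2 in *bak1-5*, and 6.78, 6.90 and 6.90 after *Psm* and 5.25, 5.28 and 5.29 after MgCl2 in the wild type. The 3 *bak1-5* *Psm* arrays were above its mock arrays and below the wild-type *Psm* arrays. BIR1 was 1 of the 3 members that rose in *bak1-5* at q of 0.05 or less, with ARCK1, a cytoplasmic receptor-like kinase, and AT3G15810, a gene of unknown function, at changes of 0.45, 0.36 and 0.49. LYK5, a receptor for fungal chitin, changed by 0.08, 0.23 and 1.25 in *lecrk-VI.2-2*, *bak1-5* and the wild type. MAPKKK14 and CRK7, a cysteine-rich receptor-like kinase, were dim members with wild-type changes of 1.44 and 1.51. The intracellular immune receptor genes AT1G72900 and AT1G66090, which encode proteins with TIR and nucleotide-binding domains, stayed below 6 in every group and changed by 1.47 and 1.02 in the wild type.

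**Figure D3:**
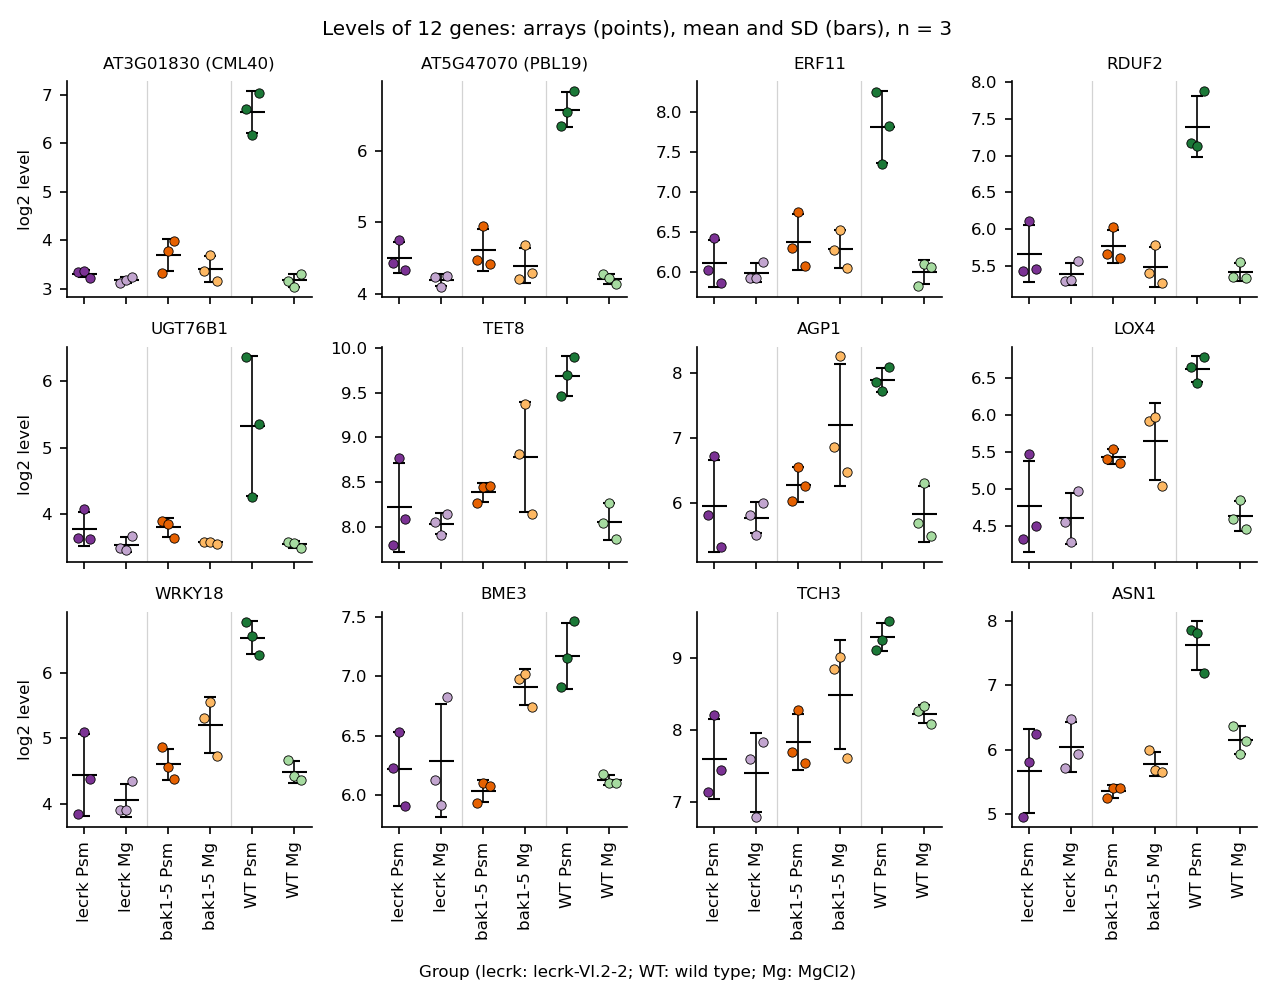
Log2 levels of 12 members in the 6 groups, with each array as a point and the mean and SD as bars (n = 3 arrays per group). AT3G01830, AT5G47070, ERF11, RDUF2 and UGT76B1 are near their mock level in both mutants, whereas AGP1, LOX4, WRKY18, BME3 and TCH3 have a lower *bak1-5* mean after *Psm* than after MgCl2.

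Transcription factors were the largest role, with 16 members. WRKY18, of the WRKY group IIa that includes WRKY40 and WRKY60, read 3.85, 5.10 and 4.37 after *Psm* and 3.90, 3.90 and 4.34 after MgCl2 in *lecrk-VI.2-2*. In *bak1-5* it read 4.86, 4.56 and 4.38 after *Psm* and 5.31, 5.56 and 4.74 after MgCl2, and in the wild type 6.77, 6.57 and 6.28 after *Psm* and 4.67, 4.43 and 4.36 after MgCl2. The mock level was highest in *bak1-5*, whose 3 arrays were all above the 3 wild-type arrays, and lowest in *lecrk-VI.2-2*, whose 3 arrays were all below them. WRKY40, left out of the set by name, changed by 0.47 in *lecrk-VI.2-2*, 0.30 in *bak1-5* and 3.39 in the wild type, and WRKY60 by 0.03, 0.14 and 0.37.

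The ERF factors ERF11, a repressor of ethylene-responsive genes, and RRTF1 (ERF109), which is induced by reactive oxygen, changed by 1.81 and 1.82 in the wild type. ERF11 read 6.03, 6.43 and 5.86 after *Psm* and 5.93, 5.92 and 6.12 after MgCl2 in *lecrk-VI.2-2*, and 6.29, 6.75 and 6.07 after *Psm* and 6.27, 6.53 and 6.05 after MgCl2 in *bak1-5*. The wild type had 8.25, 7.35 and 7.82 after *Psm* and 5.82, 6.09 and 6.07 after MgCl2. Neither mutant separated from its own mock arrays, and no mutant array reached the lowest wild-type *Psm* array. The heat shock factors HSFA4A and HSFB1 (HSF4 in the annotation) had wild-type changes of 1.75 and 1.47, and MYB15, which activates lignin genes in defence, had 1.69 from a dim base. The unfolded-protein-response factor BZIP60 changed by 0.13, -0.12 and 1.06, and the anthocyanin regulator PAP1 by 0.30, 0.49 and 1.08.

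BME3, a GATA factor known from seed germination, was the transcription factor with the lowest *bak1-5* change. It read 6.23, 6.53 and 5.91 after *Psm* and 6.13, 5.92 and 6.82 after MgCl2 in *lecrk-VI.2-2*. Its *bak1-5* values were 5.93, 6.10 and 6.08 after *Psm* and 6.98, 7.02 and 6.74 after MgCl2, and its wild-type values 6.91, 7.15 and 7.46 after *Psm* and 6.18, 6.10 and 6.10 after MgCl2. The *bak1-5* and wild-type arrays were thus in opposite order with no overlap. BME3, AT2G44500 (a putative protein O-fucosyltransferase) and AT1G17620 (a hydroxyproline-rich glycoprotein) were the 3 members that fell in *bak1-5* at q of 0.05 or less. Their changes were -0.88, -0.79 and -0.68. They were 2.33% of the members, beside 3.01% of all probe sets. Nothing is read from this count, as the rule used the *bak1-5* change.

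Genes of the cell wall and the extracellular space held 10 members, among them AGP1, the member with the largest mock excess in *bak1-5*. AGP1, an arabinogalactan protein, read 5.82, 6.72 and 5.31 after *Psm* and 5.81, 5.50 and 5.99 after MgCl2 in *lecrk-VI.2-2*, and 6.02, 6.56 and 6.26 after *Psm* and 6.86, 8.26 and 6.48 after MgCl2 in *bak1-5*. It read 7.86, 7.73 and 8.09 after *Psm* and 5.69, 6.31 and 5.48 after MgCl2 in the wild type. *bak1-5* mock replicate 2 thus exceeded every wild-type *Psm* array, and the other 2 *bak1-5* mock arrays lay between the wild-type mock and *Psm* arrays. AT2G41640, a family 61 glycosyltransferase, changed by 0.43, -0.26 and 2.25 in *lecrk-VI.2-2*, *bak1-5* and the wild type. EXL2, a relative of the brassinosteroid-responsive gene EXORDIUM, changed by -0.16, -0.51 and 1.85. Its relatives EXO and EXL1 met the 3 thresholds and were left out of the set by name. They changed by -0.27 and 0.05 in *lecrk-VI.2-2*, by -3.09 and -3.44 in *bak1-5* and by 1.63 and 1.54 in the wild type. Their *bak1-5* mock means were 8.78 and 8.20, against 6.22 and 4.845 in the wild type. The xyloglucan-modifying gene XTH25 and the pectin methylesterase gene PME3 had wild-type changes of 1.52 and 1.099.

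Jasmonate synthesis had LOX4 and AOC3 as members, and both enzymes are chloroplast steps of the pathway. LOX4, a lipoxygenase, read 4.33, 5.48 and 4.50 after *Psm* and 4.55, 4.29 and 4.97 after MgCl2 in *lecrk-VI.2-2*, and 5.41, 5.55 and 5.35 after *Psm* and 5.92, 5.98 and 5.05 after MgCl2 in *bak1-5*. Wild-type leaves had 6.65, 6.44 and 6.79 after *Psm* and 4.60, 4.86 and 4.46 after MgCl2. The 6 *bak1-5* arrays all lay between the wild-type mock and *Psm* arrays. AOC3, an allene oxide cyclase, changed by 0.17, 0.24 and 1.80 with a standard error of 0.14. The other genes of the pathway were taken from a list. Of 14 genes listed, 11 were measured. Nearly all of these were named through a table sorted by wild-type change, and the counts lean towards a rise. At q of 0.05 or less 1, LOX2, rose in *lecrk-VI.2-2* (0.607% of all probe sets), 5 rose in *bak1-5* (4.08%) and 11 in the wild type (7.36%). The genes counted include the members LOX4 and AOC3, which the rule chose for rising only in the wild type. Nothing is read from the counts. LOX2 changed by 1.80, 2.51 and 3.28 and AOS by 1.47, 2.43 and 3.34 in *lecrk-VI.2-2*, *bak1-5* and the wild type, where AOS missed the threshold in *lecrk-VI.2-2* (q = 0.128, limma).

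Vesicle traffic and membrane genes held 10 members. The plasma membrane syntaxins SYP121 (PEN1) and SYP122, which fuse secretory vesicles during defence at the cell surface, changed by 0.21 and 0.41 in *lecrk-VI.2-2*, by 0.20 and -0.23 in *bak1-5* and by 1.02 and 1.49 in the wild type. Their partner SNAP33 was outside the set, with 0.57, 0.63 and 1.41 in *lecrk-VI.2-2*, *bak1-5* and the wild type. The exocyst subunits EXO70B2, which is needed for full responses to pathogen molecules, and EXO70H7 changed by 1.27 and 1.28 in the wild type. EXO70B2 had 6.62, 6.52 and 6.44 after *Psm* and 6.15, 6.12 and 6.27 after MgCl2 in *lecrk-VI.2-2*, and 6.51, 6.55 and 6.59 after *Psm* and 6.08, 6.29 and 6.08 after MgCl2 in *bak1-5*. It had 7.56, 6.91 and 7.70 after *Psm* and 6.08, 6.14 and 6.13 after MgCl2 in the wild type. EXO70B2 is a member with non-overlapping arrays in all 3 genotypes and a smaller step in the mutants, of 0.35 in *lecrk-VI.2-2* and 0.41 in *bak1-5*. TET8, a tetraspanin of secreted vesicles, changed by 0.18, -0.39 and 1.62.

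Ubiquitin ligases were represented by the RING protein RDUF2 and the U-box proteins PUB23 and PUB19. RDUF2 read 5.43, 6.12 and 5.46 after *Psm* and 5.30, 5.32 and 5.57 after MgCl2 in *lecrk-VI.2-2*, and 5.66, 6.03 and 5.62 after *Psm* and 5.41, 5.78 and 5.27 after MgCl2 in *bak1-5*. It read 7.17, 7.13 and 7.87 after *Psm* and 5.35, 5.56 and 5.34 after MgCl2 in the wild type. Each wild-type *Psm* array was more than 1 above every mutant array. PUB23, which with PUB22 and PUB24 dampens responses to pathogen molecules, changed by 0.13, -0.22 and 1.51, and its partners PUB22 and PUB24 by 0.49 and 0.40 in the wild type. Of 16 U-box genes listed 11 were measured. At q of 0.05 or less 0 rose in *lecrk-VI.2-2* (0.607% of all probe sets), 1 in *bak1-5* (4.08%) and 7 in the wild type (7.36%). The genes counted include the members PUB23 and PUB19, which the rule chose for rising only in the wild type. Nothing is read from the counts.

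Senescence, sugar and nitrogen genes held 8 members. One of them, ASN1, had changes below 0 in both mutants, as did members of other roles such as EXL2 and AT1G17620. ASN1, the dark-induced asparagine synthetase, read 4.95, 5.81 and 6.24 after *Psm* and 5.71, 6.47 and 5.93 after MgCl2 in *lecrk-VI.2-2*, and 5.24, 5.41 and 5.40 after *Psm* and 5.99, 5.69 and 5.66 after MgCl2 in *bak1-5*. The wild type gave 7.86, 7.82 and 7.19 after *Psm* and 6.37, 5.93 and 6.14 after MgCl2. Its *lecrk-VI.2-2* change of -0.37 was the lowest of the 129 in that mutant, and its arrays there overlapped. SAG13 and SAG21, both induced in ageing leaves, changed by 1.34 and 1.20 in the wild type, and ACD1 (PAO), which opens the chlorophyll ring during breakdown, by 1.07. SIP2, an enzyme of raffinose breakdown, had 1 of 3 *lecrk-VI.2-2* *Psm* arrays within the wild-type *Psm* range, with 5.59, 7.18 and 5.54 after *Psm* in *lecrk-VI.2-2*, 6.18, 7.06 and 5.49 in *bak1-5* and 8.14, 7.08 and 7.31 in the wild type.

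Small-molecule conjugation and redox genes held 5 members, and transporters 4. UGT76B1, which glucosylates isoleucic acid, salicylic acid and the SAR signal N-hydroxypipecolic acid, changed by 0.24, 0.23 and 1.78 ± 0.31 (SE) in *lecrk-VI.2-2*, *bak1-5* and the wild type. The wild-type *Psm* arrays of UGT76B1 were far apart, at 6.36, 4.25 and 5.35, and yet all exceeded the highest mutant array, at 4.08. The MATE-type transporter genes AT1G61890 and AT5G52050 changed by 0.44 and 0.24 in *lecrk-VI.2-2*, by -0.19 and -0.24 in *bak1-5* and by 1.89 and 1.43 in the wild type. PNC2, a peroxisomal adenine nucleotide carrier, changed by 0.08, 0.005 and 1.20.

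The other 43 named members have other or unknown roles and include AT4G27654, AT3G02840, AT1G18740 and AT3G05500 among the 10 largest wild-type changes, at 2.73, 2.48, 2.15 and 2.01. AT3G02840, of unknown function, read 4.37, 4.74 and 4.18 after *Psm* and 4.25, 4.13 and 4.20 after MgCl2 in *lecrk-VI.2-2*, and 4.38, 4.65 and 4.11 after *Psm* and 4.30, 4.56 and 4.04 after MgCl2 in *bak1-5*. In wild-type leaves it read 6.35, 6.64 and 7.26 after *Psm* and 4.29, 4.27 and 4.25 after MgCl2. The wild-type mock arrays of AT3G02840 agreed to 0.04, and each *Psm* array was more than 1.5 above every mutant array.

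**Figure D4:**
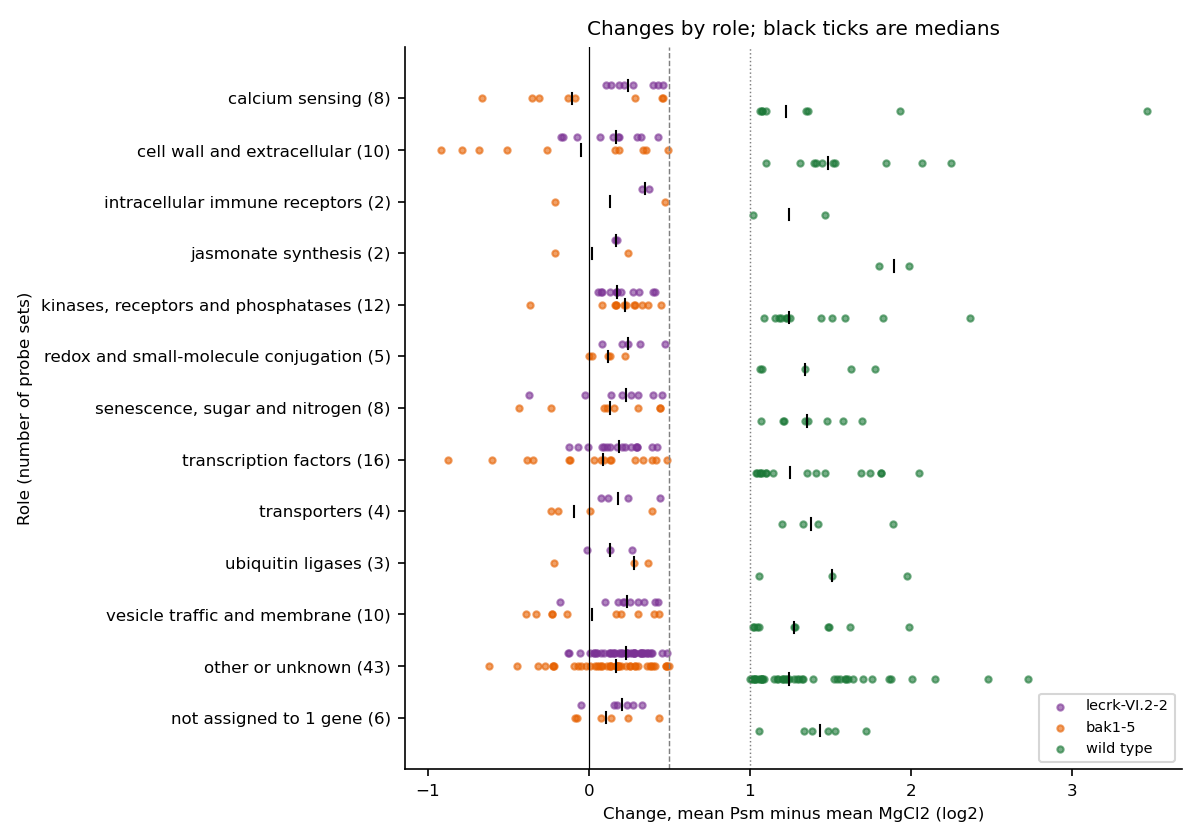
Change with *Psm* (mean *Psm* minus mean MgCl2, log2) of the 129 probe sets by role in *lecrk-VI.2-2*, *bak1-5* and the wild type, with medians as black ticks. The dashed line at 0.5 and the dotted line at 1 are the thresholds that chose the members. The *bak1-5* changes spread from -0.92 to 0.495 and the *lecrk-VI.2-2* changes from -0.37 to 0.49.

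Of the other families listed, the genes measured were mostly those named through a table sorted by wild-type change. Those named that way all had a higher wild-type mean after *Psm*, so the family counts lean towards a rise. At q of 0.05 or less 8 of 11 ERF factors, 3 of 3 WRKY group IIa factors, 4 of 4 heat shock factors, 5 of 5 syntaxins and partners, 4 of 5 EXO70 subunits, 4 of 7 pattern receptors and partners, 3 of 4 touch genes, 4 of 4 EXORDIUM genes and 6 of 6 senescence genes rose in wild-type leaves. The *lecrk-VI.2-2* leaves had 2 pattern receptors or partners that rose, and 0 genes of the other 8 families did. In *bak1-5* 3 pattern receptors or partners, 1 syntaxin or partner, 1 EXO70 subunit and 1 senescence gene rose, and 2 EXORDIUM genes and 1 touch gene fell. Over all probe sets, 7.36% rose in the wild type, 0.607% rose in *lecrk-VI.2-2*, and 4.08% rose and 3.01% fell in *bak1-5*. The genes measured include members, which the rule chose for rising only in the wild type. Members were 2 ERF, 1 WRKY, 2 heat shock, 2 syntaxin or partner and 2 EXO70 genes. So were 2 pattern receptors or partners, 2 touch genes, 1 EXORDIUM gene and 5 senescence genes. Nothing is read from these counts.

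Across the role groups, median *lecrk-VI.2-2* changes ran from 0.13 for ubiquitin ligases to 0.35 for the immune receptors, and median *bak1-5* changes from -0.11 for calcium sensing to 0.28 for ubiquitin ligases. Median wild-type changes ran from 1.22 for calcium sensing to 1.89 for jasmonate synthesis. A *bak1-5* change below 0 was seen in 5 of 8 calcium-sensing, 5 of 10 cell wall and 5 of 10 vesicle members, in 1 of 12 kinases and phosphatases and in 42 of all 129, beside 61.1% of all probe sets. The same count was 14 of 129 in *lecrk-VI.2-2*, beside 50.3%. Changes of -0.5 or lower were confined among the 129 to *bak1-5*, where AGP1, BME3, AT2G44500, AT1G17620, TCH3, AT1G15010, WRKY18 and EXL2 had -0.92 to -0.51. EXO, EXL1 and TCH4, left out by name, had lower *bak1-5* changes, of -3.09, -3.44 and -2.41. WRKY40, also left out by name, had 0.30.

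A higher mock level in *bak1-5* was found in part of the members. The rule used these arrays, and a high mock level in a mutant favours membership, so these differences were not tested. The median mock level relative to the wild type was -0.03 in *lecrk-VI.2-2* and 0.16 in *bak1-5*, where the medians over all probe sets were -0.01 and 0.01. At least 0.5 above the wild type after MgCl2 were 0 members in *lecrk-VI.2-2* (0.0659% of all probe sets) and 18 in *bak1-5* (0.554%), while among the other 438 wild-type risers there were 26 in *bak1-5*. The largest were AGP1 at 1.37, AT2G44500 at 1.16, LOX4 at 1.01, AT1G61890 at 0.96 and BZIP53 at 0.87. The count rested on single arrays, as it was 8 without *bak1-5* MgCl2 replicate 2 and 34 without *bak1-5* MgCl2 replicate 3. All 3 *bak1-5* mock arrays lay above all 3 wild-type mock arrays for 28 members (7.33% of all probe sets) and below them for 4, namely AGP5, AT4G39670, STY46 and MDHAR (5.46%). For *lecrk-VI.2-2* the counts were 4 above, namely BIR1, XTH25, UTR1 and AIB (3.65%), and 10 below (5.28%).

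The levels of the mutants were also set against each other within a treatment. The rule drew on the same arrays, and its threshold did not bear on both mutants alike, since the other 438 wild-type risers had a median change of 0.64 in *lecrk-VI.2-2* and 0.94 in *bak1-5*. The differences between the mutants are therefore a description, and nothing is read from the counts. After MgCl2, *lecrk-VI.2-2* minus *bak1-5* had a median of -0.20 over the members and -0.02 over all probe sets, and after *Psm* of -0.14 and 0.02. At q of 0.05 or less (limma), 0 members were higher and 0 lower in *lecrk-VI.2-2* than in *bak1-5* after MgCl2 (0.0308% and 0.0396% of all probe sets), and 0 higher and 0 lower after *Psm* (0.0484% and 0.149%). At an unadjusted p under 0.05, 0 members were higher and 36 lower after MgCl2 (2.07% and 4.49% of all probe sets), and 0 higher and 10 lower after *Psm* (5.12% and 6.63%). All 3 *lecrk-VI.2-2* arrays lay below all 3 *bak1-5* arrays for 29 members after MgCl2 (6.34%) and for 7 after *Psm* (6.87%). They lay above for XTH25 after MgCl2 (3.82%) and for AT1G58420 after *Psm* (6.86%).

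The largest differences after MgCl2 were those of AGP1, -1.43 ± 0.36 (SE), WRKY18, -1.15 ± 0.25, TCH3, -1.09 ± 0.33, AT4G34150, a calcium-dependent lipid-binding protein, -1.08 ± 0.25, and LOX4, -1.05 ± 0.26. AT4G34150 read 6.45, 6.13 and 6.85 in *lecrk-VI.2-2* and 7.64, 8.24 and 6.81 in *bak1-5* after MgCl2, so that replicate 3 of *bak1-5* was within the *lecrk-VI.2-2* range. Without that replicate WRKY18, LOX4, TCH3, AT4G34150 and AT2G44500 were lower in *lecrk-VI.2-2* at q of 0.05 or less, where 0.163% of all probe sets were called. With array weights BZIP53, AT4G34150, WRKY18, LOX4 and AT2G44500 were, where 0.387% were called. After *Psm* the lowest difference was that of LOX4, -0.67 ± 0.26, and the highest that of MDHAR, a monodehydroascorbate reductase, 0.39 ± 0.22. MDHAR read 4.98, 5.57 and 4.66 in *lecrk-VI.2-2* and 4.72, 5.08 and 4.22 in *bak1-5*, with overlap, and passed q of 0.05 only with array weights.

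**Figure D5:**
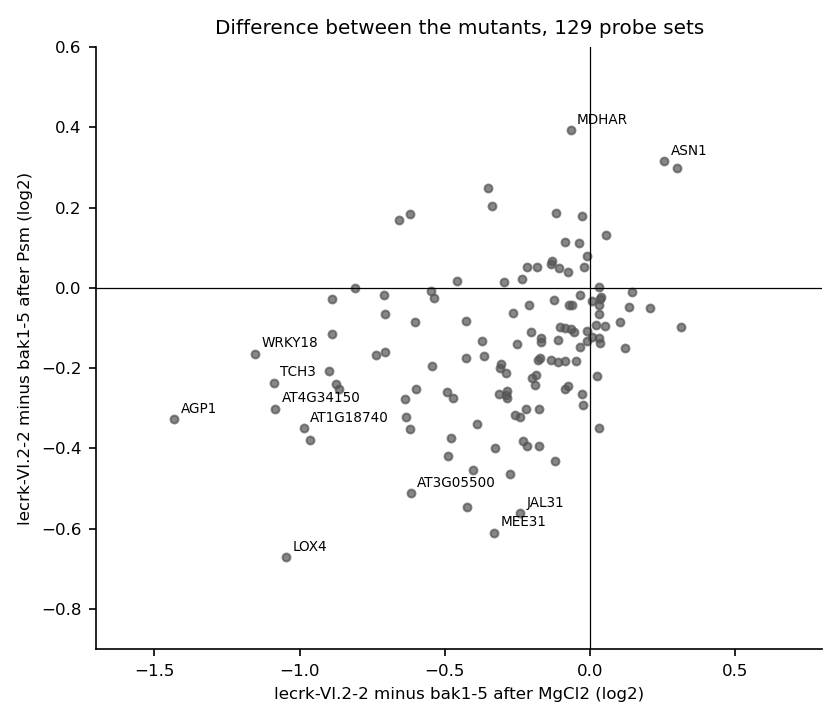
Difference of the mean log2 level, *lecrk-VI.2-2* minus *bak1-5*, after MgCl2 (x axis) and after *Psm* (y axis) for the 129 probe sets, each a point. Most points lie left of 0 on the x axis, down to -1.43 for AGP1, and the y axis runs from -0.67 for LOX4 to 0.39 for MDHAR.

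The thresholds cut through a continuous range. Just inside the wild-type threshold were ZCF37 at 1.00, AT2G38790 at 1.01 and AT5G18310 at 1.02, and just outside it were PP2-A11 at just under 1, GSTU19 at 0.998 and AT3G60540 at 0.991. Just below the *lecrk-VI.2-2* threshold were AT3G05500 at 0.487, MDHAR at 0.475 and TCH2 at 0.460, and just above it AT3G17410 at 0.507, PAD4 at 0.509 and AT1G54020 at 0.515. Just below the *bak1-5* threshold were AT3G07700 at 0.495, AT1G55210 at 0.490 and AT3G15810 at 0.487, and just above it NAC090 at 0.507, ASP2 at 0.516 and BCS1 at 0.522. With each of the 18 arrays left out in turn, 64 of the 129 met the rule every time, and AT3G15810 met it least often, in 12 of the 18.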

How the data were processed

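Affymetrix ATH1 arrays of 18 samples were used. The authors normalized the scans with RMA in affy, and the deposited values are log2 levels per probe set. The study also names Expression Console for probe set summarization. A genome build is not given in the sources used here. From the deposited values, 22746 non-control probe sets were analysed as deposited in limma 3.58.1 (R 4.3.3), with a mean for each of 6 groups and Benjamini-Hochberg q values over all probe sets, called at 0.05 or less, and checked on simulated data. Groups came from the labels. Nothing in the sources says that replicates came from separate growths, so q measures the spread between these samples. The 3 arrays a group limit the precision.

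Genes were named from the platform annotation (13502 probe sets) and, for 989 more, by matching the 3 changes to the loci of a study table to within 0.00051. The paper describes that table as changes in all 3 genotypes, sorted by the wild-type change, with raised and lowered genes marked. The listed genes named through it all had a higher wild-type mean after *Psm*, so the gene lists lean to genes that rose. The authors' own fold changes served only as this key, and their q values were not used. The differences between the mutants were planned as tests and are given as a description, because the rule drew on the same arrays. The members, lists and roles were chosen with earlier results of these data known. Genes were named in the text for the largest wild-type changes, the top of each role, list membership, low mutant changes, nearness to a threshold, differences between the mutants, and counts of 5 or fewer. Alternatives were median centring, cyclic loess, a brightness filter of 6, arrays left out, array weights, a trended robust prior, the compared arrays alone, a fold limit of 2 and a replicate block. Promoter sequences were not analysed here. Figures were drawn in matplotlib 3.10.9.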

Additional observations from a re-analysis of the deposited data

Results flagged for a closer look

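Groups of 3 arrays are too small for an outlier test. In 5 members every wild-type *Psm* array lay above every wild-type mock array while every *bak1-5* *Psm* array lay below every *bak1-5* mock array. Of all probe sets, 15.1% had that order in the wild type and 15.7% had that order in *bak1-5*. The share of all probe sets with both orders was not counted, so nothing is read from the count of 5. The opposite direction was not tested, because the rule used these changes. The change in *bak1-5* was -0.88 for BME3, -0.68 for AT1G17620, -0.43 for ASN1, -0.37 for AT4G33920, a protein phosphatase 2C gene, and -0.22 for AT5G35735, against 1.04, 1.31, 1.48, 1.23 and 1.88 in the wild type. For *lecrk-VI.2-2*, 0 members had its *Psm* arrays below its mock arrays.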

How the results depend on the processing

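The set held 109 to 162 probe sets when 1 array was left out, fewest without *bak1-5* *Psm* replicate 3 and most without *bak1-5* *Psm* replicate 2, and 123 to 138 with median centring, cyclic loess or the median of 3 arrays. Among probe sets with a group mean of 6 or more it held 83. The median change with 1 array left out ran from 0.067 to 0.319 in *lecrk-VI.2-2*, from -0.013 to 0.252 in *bak1-5* and from 1.272 to 1.403 in the wild type. The members at least 0.5 above the wild type in *bak1-5* after MgCl2 numbered 8 to 34, a check chosen after seeing the data. Members lower in *lecrk-VI.2-2* than in *bak1-5* after MgCl2 numbered 5 with array weights and 0 to 5 with 1 array left out (1 without *lecrk-VI.2-2* MgCl2 replicate 3, which was BME3), and members higher after *Psm* numbered 1 with array weights. The cause was not tested. With the replicate number as a block all 4 counts were 0. Deviations of same-numbered arrays of the mutants correlated at -0.037, 0.19 and -0.059 after MgCl2 and at 0.062, 0.322 and 0.26 after *Psm*. Those of arrays with unlike numbers ran from -0.237 to 0.265 after MgCl2 and from -0.298 to 0.064 after *Psm*. The main fit did not take the numbers as pairs, and whether same-numbered arrays share an effect was not tested. Without both *lecrk-VI.2-2* arrays with the fewest bright probe sets, also chosen after seeing the data, the set held 123. Dim probe sets limit the rest, since 46 members stayed below 6 in every group.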
